A study of Homo sapiens with 18 samples.

Results

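The calpains are a family of cysteine proteases, and 8 of its genes were followed here through a knockdown of fibrillarin: the proteases CAPN1, CAPN2, CAPN5, CAPN7, CAPN10 and CAPN15, the small subunit CAPNS1 and the inhibitor CAST (calpastatin). All 8 are present among the 17017 gene symbols of the deposited table. The family was selected on 1 measured value, the ratio of ribosome footprints to RNA of CAPN15, which was lower under both hairpins in an earlier look at these data. The changes of CAPN15 against the control and between the hairpins are therefore given as a description without a test. The question asked of the other 7 genes was whether they share that loss.

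The cells were MDA-MB-231, an established human triple-negative breast carcinoma line with mesenchymal features. They were transduced with lentivirus carrying a scramble control (SC) or a short hairpin RNA that targets the fibrillarin transcript (FBL), the methyltransferase that places 2'-O-methyl groups on ribosomal RNA. All groups share the lentiviral backbone, the selection with puromycin at 1 µg/ml for 96 hours and a 5 minute exposure to cycloheximide at 100 µg/ml before lysis. The hairpin groups are labelled SH2 and SH3, and how these names map to knockdown 1 and knockdown 2 is not stated. Each group has 3 replicates of input cytoplasmic RNA (IN, called RNA here) and 3 of RNase I footprints from monosomes (RPF, called footprints here), 18 libraries in all. The labels do not say that replicates came from separate cultures, so p-values measure the spread between these samples, which may be technical. These are bulk lysates, in which fewer cells holding a transcript and less transcript per cell cannot be told apart.

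FBL itself had an RNA level of 395, 349 and 421 CPM (counts scaled to the library total times its TMM normalization factor) in the 3 SC libraries, of 1.25, 4.51 and 11.2 in SH2 and of 3.36, 4.15 and 2.95 in SH3. FBL RNA was thus low in all 6 hairpin libraries. RNA libraries held 23469830 to 27629488 counts and footprint libraries 1662705 to 6098648, so footprint values are the less precise ones. VIM, CD44, EGFR and AXL were abundant, as is known for this line, and ESR1 and PGR had 0 to 2 RNA counts per library. CDH1 had 1 to 11 RNA counts, while EPCAM had 125 to 218, a low level that is not near 0. Of the markers of other cell types, MYH7, ACTA1, KRT1 and VIL1 had 0 to 3 RNA counts per library. PTPRC, a leukocyte marker, had 29 to 36 RNA counts in SC and 4 to 14 under the hairpins. PECAM1, of endothelium, had 28 to 93, MUC5AC, of stomach epithelium, 19 to 106, and KRT10, of skin, 172 to 280. The part of such markers in the results below was not tested.

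Calpains cut their substrates at a limited number of sites in a calcium-dependent way, which changes the function of a protein more often than it destroys it. The classical calpains are heterodimers: CAPN1 or CAPN2 supplies the catalytic subunit, CAPNS1 is the regulatory subunit common to both, and calpastatin blocks the assembled enzyme. In migrating cells they are known for cutting proteins of focal adhesions and of the membrane skeleton. CAPN15 belongs to the non-classical calpains. It lacks the calcium-binding hands of the classical enzymes, carries zinc fingers of the RanBP2 type at its amino end and is the human counterpart of the small optic lobes protein of the fruit fly.

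The sequences before the transcription starts of 3 genes are shown because these genes had the largest positive RNA differences from SC in the family, CAPN8 being a further calpain described below. Each is 250 bases, 5′ to 3′, from RefSeq on GRCh38.p14. Capitals mark matches, on either strand, to the letters GGGCGG of the GC box, or to CCAAT, the box bound by the factor NF-Y. They also mark TATAAA, the core promoter element, and TGANTCA, the AP-1 site. The search further covered the E box with the letters CACGTG, the NRF1 site, and the letters CCGGAAG of the ETS core, none of which matched in these 4 sequences. A CCAAT match and a GC box share bases in 1 entry of CAST, which is not shown. The CAPN15 sequence lies at chr16:527462-527711 on the plus strand. The 2 CAPN2 sequences lie at chr1:223701347-223701596 and chr1:223712289-223712538, both on the plus strand, and that of CAPN8 at chr1:223665702-223665951 on the minus strand.
CAPN15: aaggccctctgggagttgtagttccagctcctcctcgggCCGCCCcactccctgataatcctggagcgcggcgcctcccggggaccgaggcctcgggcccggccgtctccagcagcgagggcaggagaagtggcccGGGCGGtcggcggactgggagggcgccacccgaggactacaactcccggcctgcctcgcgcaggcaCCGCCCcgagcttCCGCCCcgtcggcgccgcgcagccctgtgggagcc
CAPN2 first entry: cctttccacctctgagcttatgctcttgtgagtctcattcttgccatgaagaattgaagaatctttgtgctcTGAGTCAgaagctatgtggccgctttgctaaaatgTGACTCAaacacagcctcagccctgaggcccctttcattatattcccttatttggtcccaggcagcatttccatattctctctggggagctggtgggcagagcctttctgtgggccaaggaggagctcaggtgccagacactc
CAPN2 second entry: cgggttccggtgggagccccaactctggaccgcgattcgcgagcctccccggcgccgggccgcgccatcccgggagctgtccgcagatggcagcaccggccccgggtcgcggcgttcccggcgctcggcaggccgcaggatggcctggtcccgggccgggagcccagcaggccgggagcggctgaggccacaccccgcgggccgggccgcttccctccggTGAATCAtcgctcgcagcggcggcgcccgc
CAPN8: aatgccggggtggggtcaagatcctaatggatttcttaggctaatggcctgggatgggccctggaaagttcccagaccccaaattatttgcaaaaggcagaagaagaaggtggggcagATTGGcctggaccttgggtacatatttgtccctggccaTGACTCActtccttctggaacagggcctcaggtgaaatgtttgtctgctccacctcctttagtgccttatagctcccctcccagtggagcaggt

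The CAPN15 sequence was 74.8% G and C, at percentile 89.9 of the 35116 promoter entries, whose median was 58.0%. It held 4 GC boxes, a motif present in 42.6% of all entries, and none of the other 6 motifs. Both CAPN2 entries held an AP-1 match, 2 in the first and 1 in the second, and the CAPN8 entry held 1 AP-1 and 1 CCAAT match. AP-1 matches occur in 6.57% of all entries and CCAAT matches in 32.0%. Among the other members, 1 of 5 entries of CAST held an AP-1 match, and the entries of CAPN1, CAPN7, CAPN10 and CAPNS1 held none. An entry was given for 7 of the 8 members, CAPN5 being the exception. A match is a string of letters and says nothing of binding.

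The first 20 transcribed bases of CAPN15 and CAPNS1 are shown because these genes differed widely in translational efficiency in control cells, and because mRNAs that begin with C and a pyrimidine run form a known class of translationally regulated mRNAs. Capitals mark a C followed directly by pyrimidines at the start. The CAPN15 bases lie at chr16:527712-527731, and those of CAPNS1 at chr19:36140066-36140085 and chr19:36140990-36141009, all on the plus strand.
CAPN15: gtagtccgggcgcgcgattc
CAPNS1 first entry: gagtcaccggccccgccctc
CAPNS1 second entry: CCCCCagcagtgagtcgcag

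CAPN15 began with G and had no such run. The second start of CAPNS1 opened with 5 C residues. Of all promoter entries, 4.07% begin with C and at least 4 more pyrimidines. No other start listed for a member had such a run.

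CAPN15 RNA was higher under both hairpins while its footprints were not. Its RNA level was 129.8, 98.5 and 127 CPM in SC, 233, 240.2 and 291 in SH2, and 204, 256 and 215 in SH3. The groups of hairpin libraries lay above every SC library, with a mean of 118 ± 17.2 (SD, n = 3) in SC, of 255 ± 31.7 in SH2 and of 225 ± 27.5 in SH3. The fitted RNA difference from SC was 1.11 on the log2 scale (SE 0.13) in SH2 and 0.93 (SE 0.13) in SH3. The protein-coding gene LOC124900576, the pseudogene LOC102723945 and the microRNAs MIR5587 and MIR3176 overlap the span of CAPN15. None of them is in the counts, and the counting strand is not given, so their reads and those of CAPN15 may not be fully told apart.

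Footprints of CAPN15 were few. In SC they numbered 127, 67 and 155 counts, in SH2 49, 100 and 85, and in SH3 27, 42 and 66. In CPM these were 20.6, 28.2 and 27.4 in SC, 18.1, 23.2 and 27.4 in SH2, and 15.8, 14.3 and 23.1 in SH3, so the groups overlapped. The fitted footprint difference from SC was −0.13 (SE 0.22) in SH2 and −0.49 (SE 0.23) in SH3 on the log2 scale. Without replicate 1 of SH2 the first of these was 0.018.

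Translational efficiency, the ratio of footprint CPM to RNA CPM, puts these values together. Each single ratio sets footprints against RNA of the same replicate number, called a lysate here. That these libraries match is assumed and not borne out by the data. Their deviations from group means correlated at −0.47 to 0.48 within a number, and at −0.33 to 0.54 across numbers. Single ratios, their spread and their overlap depend on this match, which the fit below does not use. For CAPN15 it was 0.158, 0.286 and 0.217 in the SC lysates, 0.0776, 0.0968 and 0.0942 in SH2, and 0.0774, 0.0560 and 0.107 in SH3. Every hairpin lysate lay below every SC lysate. In the edgeR fit over 18 libraries the log2 change in translational efficiency was −1.24 (SE 0.24) in SH2 and −1.40 (SE 0.26) in SH3. These values are what led to the choice of the family, so neither their SE nor their range over other settings is a test. Over 18 other settings of the fit the SH2 value lay between −1.44 and −1.07, and the SH3 value between −1.70 and −1.15. Both hairpins are set against the same SC libraries, so these are not independent values.

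**Figure D1:**
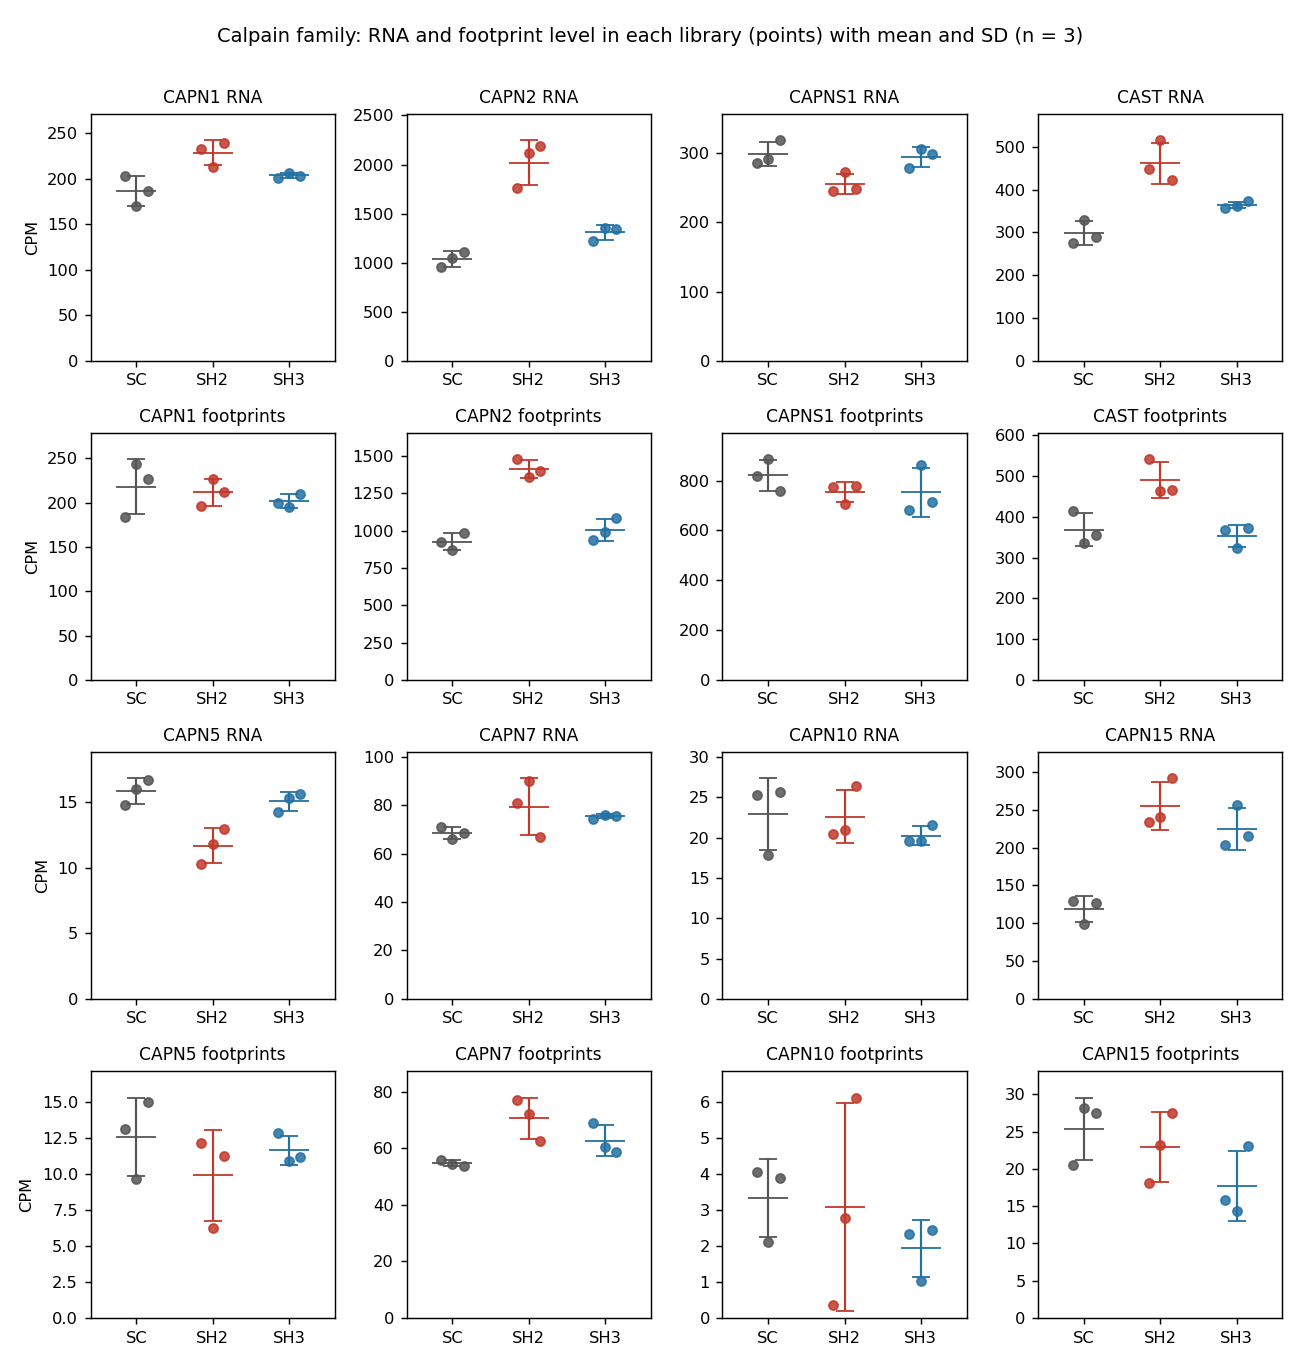
RNA and footprint level of the 8 calpain family genes in CPM (y axes, each from 0) for the treatments SC, SH2 and SH3 (x axes). Points are single libraries, and the horizontal line and bar are the mean and SD (n = 3). CAPN15 RNA is at 98.5 to 129.8 CPM in SC and at 204 to 291 under the hairpins, while its footprints overlap between treatments.

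The CAPN15 difference between the hairpins is a description too, since a low ratio under both hairpins led to the choice. In the edgeR fits, the log2 difference of SH2 from SH3 was 0.18 in RNA (interval −0.09 to 0.45) and 0.36 in footprints (interval −0.14 to 0.87). In translational efficiency it was 0.16 (interval −0.39 to 0.71). The intervals leave room for differences of up to 0.87 in footprints.

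No loss of translational efficiency passed the test in the other members. By edgeR's quasi-likelihood test with Benjamini-Hochberg adjustment over all genes, 0 of 7 were called at an adjusted p under 0.05 in SH2, where 3.90% of all 12531 genes tested were called (1.44% higher and 2.46% lower), and 0 of 7 in SH3, where 0.686% were called (0.375% higher and 0.311% lower). DESeq2 called 0 of 7 in each as well. At an unadjusted p under 0.05 there were 2 in SH2 (CAPN1 and CAPN2) and 1 in SH3 (CAST), all lower than in SC, where 17.9% and 12.6% of all genes had such a p. With the replicate number as a block within RNA and within footprint libraries, 755 of all genes were called in SH2 in place of 489, and still 0 of the 7. This block pairs SH3 by number as well as SC and SH2, which the data did not bear out for SH3. At such background rates a count of 0 in 7 genes is near what the whole table gives, and the intervals say more than the count. The median log2 change of the 7 was −0.19 in SH2 and −0.21 in SH3, against −0.02 and −0.04 over all genes tested. Whether these medians differ from those of all genes was not tested.

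The catalytic subunits of the classical calpains had negative values in both comparisons, which did not pass the adjusted test. The ratio of CAPN1 was 0.905, 1.43 and 1.22 in SC, 0.843, 1.06 and 0.887 in SH2, and 0.989, 0.943 and 1.04 in SH3. Under the assumed match by number the groups overlapped. Its log2 change was −0.34 (interval −0.66 to −0.02, adjusted p = 0.243 by edgeR) in SH2 and −0.22 (interval −0.54 to 0.10, adjusted p = 0.606) in SH3.

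The ratio of CAPN2 was 0.971, 0.837 and 0.887 in SC, 0.841, 0.645 and 0.642 in SH2, and 0.764, 0.733 and 0.808 in SH3. Under the same match, the SH3 lysates lay below all SC lysates, and replicate 1 of SH2 lay within them. The log2 change of CAPN2 was −0.37 (interval −0.68 to −0.05, adjusted p = 0.190 by edgeR) in SH2 and −0.21 (interval −0.52 to 0.10, adjusted p = 0.624) in SH3.

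Calpastatin, the inhibitor of both enzymes, had a ratio of 1.51, 1.02 and 1.22 in SC, 1.21, 0.900 and 1.10 in SH2, and 1.03, 0.892 and 1.00 in SH3. Its log2 change was −0.23 (interval −0.57 to 0.10, adjusted p = 0.478 by edgeR) in SH2 and −0.34 (interval −0.67 to −0.0029, adjusted p = 0.390) in SH3. The regulatory subunit CAPNS1 had changes of 0.10 (interval −0.21 to 0.41) and −0.09 (interval −0.40 to 0.22), with adjusted p of 0.796 and 0.864.

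CAPN5, CAPN7 and CAPN10 are non-classical calpains like CAPN15, and they did not pass the test either. CAPN7, which is known to bind the membrane-remodelling ESCRT machinery, had log2 changes in translational efficiency of 0.14 (interval −0.20 to 0.48) in SH2 and 0.06 (interval −0.28 to 0.40) in SH3. CAPN5, which carries a C2 domain in place of calcium-binding hands, had −0.02 (interval −0.58 to 0.55) and −0.10 (interval −0.67 to 0.47).

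CAPN10, a gene named in studies of type 2 diabetes risk, could not be resolved. Its footprints were 25, 5 and 22 counts for SC, 1, 12 and 19 for SH2, and 4, 3 and 7 for SH3. Its log2 change was −0.19 in SH2 (interval −1.23 to 0.85) and −0.76 in SH3 (interval −2.01 to 0.49). These intervals are the widest of the family, and at this depth they leave both a loss and a gain possible.

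For the 6 genes other than CAPN15 and CAPN10, the lowest bound of the 95% intervals was −0.68 in SH2, for CAPN2, and −0.67 in SH3, for CAST and CAPN5. Whether CAPN15 differs from them was not tested, since it was chosen for its value.

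**Figure D2:**
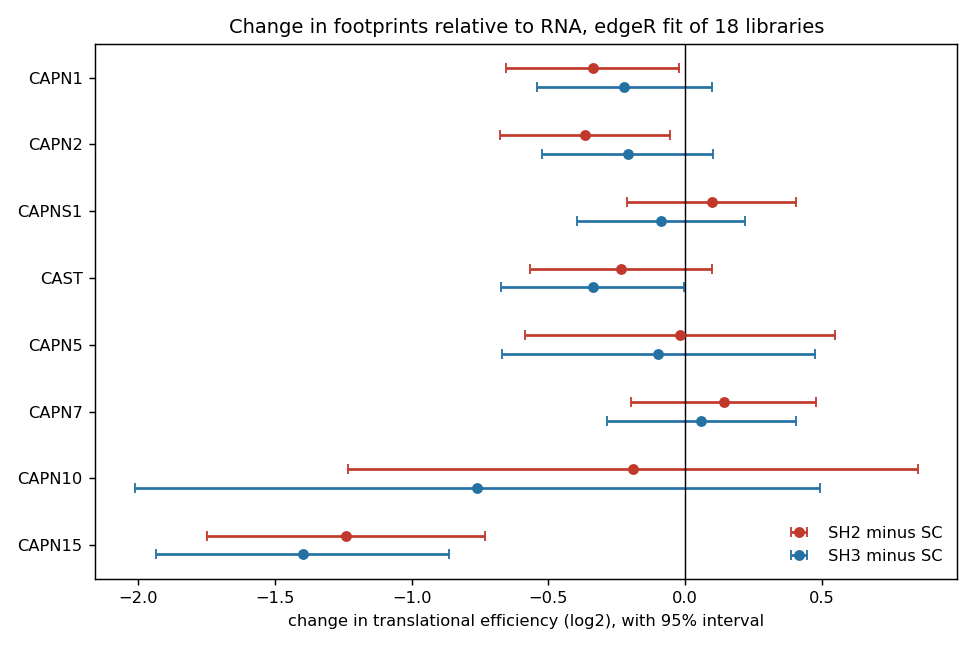
Log2 change in translational efficiency against SC (x axis) for each gene (y axis), with SH2 in red and SH3 in blue. Points are fitted values of the edgeR fit of 18 libraries and bars are 95% intervals, which are widest for CAPN10. CAPN15, at −1.24 and −1.40, was chosen on this measure, so its points and bars are a description and not a test.

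RNA levels of the classical system rose under SH2 except for the small subunit, which fell. Of the 7 genes other than CAPN15, 5 were called in RNA in SH2 by edgeR, 3 higher and 2 lower, where 61.4% of all 12710 genes tested were called (31.1% higher and 30.4% lower). In SH3 2 were called, both higher, where 53.0% of all genes were called (27.8% higher and 25.2% lower). These shares are near the background, so the family is not set apart by how many of its RNAs changed. DESeq2 made 5 and 2 calls. The median log2 change of the 7 was 0.21 in SH2 and 0.13 in SH3, against 0.01 and 0.03 over all genes tested.

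CAPN2 RNA was 952.5, 1044 and 1109.65 CPM in SC, 1758, 2113 and 2184 in SH2, and 1225, 1354 and 1342 in SH3. The 3 groups did not overlap. The log2 change was 0.96 (SE 0.11, adjusted p = 3.85e-06 by edgeR) in SH2 and 0.34 (SE 0.11, adjusted p = 0.0152) in SH3. The SH2 call held under each of 16 other settings. The SH3 call was lost without SC replicate 1, SH3 replicate 2 or SH3 replicate 3, with adjusted p of 0.0630, 0.0770 and 0.0836.

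CAST RNA was 275, 329.6 and 289.8 CPM in SC, 448, 515 and 422 in SH2, and 357, 362 and 372 in SH3, again without overlap. Its log2 change was 0.63 (SE 0.10, adjusted p = 0.000107 by edgeR) in SH2 and 0.29 (SE 0.10, adjusted p = 0.0278) in SH3. The SH3 call was lost when any of 5 single libraries was left out, namely SC replicates 1 and 3 and each SH3 replicate, with adjusted p from 0.0804 to 0.124. Annotated genes ELL2, PCSK1 and ERAP1 overlap the span of CAST, and the strand used in counting is not given in the sources used here, so their reads and those of CAST may not be fully told apart.

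CAPN1 RNA was 203, 170.1 and 186 CPM in SC, 233, 213 and 239.7 in SH2, and 201, 207 and 203 in SH3. All SH2 libraries lay above the SC libraries, while the SH3 libraries overlapped them. Its log2 change was 0.29 (SE 0.09, adjusted p = 0.0131 by edgeR) in SH2 and 0.13 (adjusted p = 0.266) in SH3. The SH2 call was lost without SC replicate 2 (adjusted p = 0.0664) or SH2 replicate 3 (adjusted p = 0.0629), and with libraries scaled to their plain totals the SH3 value became a call (adjusted p = 0.0474).

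CAPNS1 RNA was 287, 292 and 319 CPM in SC, 246, 272 and 248 in SH2, and 278, 306 and 299 in SH3. The SH2 libraries lay below all SC libraries. The log2 change was −0.23 (SE 0.09, adjusted p = 0.0390 by edgeR) in SH2 and −0.02 (adjusted p = 0.853) in SH3. The SH2 call is fragile. It was lost under 7 of 16 other settings, with plain library totals giving −0.14 (adjusted p = 0.209) and SC replicates 2 and 3 and SH2 replicates 1 and 3 each ending it when left out. In SH3 the sign turned with plain totals, to 0.07.

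Among the non-classical calpains, CAPN5 RNA fell in SH2. It was 14.7, 16.0 and 16.7 CPM in SC, 10.3, 11.8 and 12.9 in SH2, and 14.2, 15.3 and 15.6 in SH3. The SH2 libraries lay below all the others. This was a log2 change of −0.44 (SE 0.12, adjusted p = 0.00680 by edgeR) in SH2 and −0.07 (adjusted p = 0.649) in SH3, the latter turning to 0.02 with plain totals. The gene OMP overlaps CAPN5 in the annotation, with the same limit on strand.

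CAPN7 RNA was 66.2 to 70.9 CPM in SC, 67.1 to 90.2 in SH2 and 74.5 to 76.1 in SH3. Its log2 change was 0.21 (adjusted p = 0.0950 by edgeR) and 0.14 (adjusted p = 0.292). With plain totals (adjusted p = 0.0217) or without SH2 replicate 3 (adjusted p = 0.0133) the SH2 value became a call. CAPN10 RNA was 17.8 to 25.7 CPM in SC, 20.5 to 26.4 in SH2 and 19.6 to 21.6 in SH3, with log2 changes of −0.02 (0.08 with plain totals) and −0.18 (adjusted p = 0.917 and 0.325).

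Footprints of CAPN2, CAST and CAPN7 rose under SH2. These are 3 of 7 genes by edgeR, all higher, where 44.2% of all 10345 genes tested were called (21.0% higher and 23.2% lower), and DESeq2 called 2. In SH3 0 of 7 were called by edgeR and 0 by DESeq2, with 0 at an unadjusted p under 0.05, where 35.9% of all genes were called (16.9% higher and 19.0% lower).

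CAPN2 footprints were 925, 874 and 984 CPM in SC, 1479, 1363 and 1403 in SH2, and 936, 993 and 1085 in SH3. The log2 change was 0.61 (SE 0.12, adjusted p = 0.000703 by edgeR) in SH2 and 0.11 (adjusted p = 0.478) in SH3. CAST footprints were 415, 336 and 355 CPM in SC, 541, 464 and 466 in SH2, and 367, 323 and 372 in SH3. Their log2 change was 0.41 (SE 0.13, adjusted p = 0.0196 by edgeR) in SH2 and −0.06 (adjusted p = 0.749) in SH3. For both genes all SH2 libraries lay above the SC libraries, while the SH3 libraries overlapped them. The CAST call was lost without SC replicate 2, SC replicate 3 or SH2 replicate 1, with adjusted p from 0.0526 to 0.0749.

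CAPN7 footprints were 55.9, 54.6 and 53.8 CPM in SC, 77.2, 72.1 and 62.6 in SH2, and 68.9, 60.5 and 58.8 in SH3. Every hairpin library lay above the SC libraries. The log2 change was 0.37 (SE 0.14, adjusted p = 0.0447 by edgeR) in SH2 and 0.19 (adjusted p = 0.329) in SH3. The SH2 call was lost under 11 of 17 other settings, DESeq2 among them (adjusted p = 0.0526). Leaving out any single SC replicate, SH2 replicate 1 or 2, or SH3 replicate 2 or 3 ended it.

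CAPN1 footprints were 184 to 244 CPM in SC, 196 to 226 in SH2 and 195 to 210.2 in SH3, with log2 changes of −0.04 and −0.11. CAPNS1 footprints were 758 to 886 CPM in SC, 707 to 781 in SH2 and 682 to 863 in SH3, with changes of −0.12 and −0.12. CAPN5 footprints were 9.67 to 15.1 CPM in SC, 6.28 to 12.2 in SH2 and 10.9 to 12.8 in SH3, with changes of −0.42 and −0.16. CAPN10 footprints had log2 changes of −0.17 and −0.91, on the counts given above. None of these 4 genes was called by edgeR in either comparison, and their adjusted p ran from 0.215 to 0.842.

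**Figure D3:**
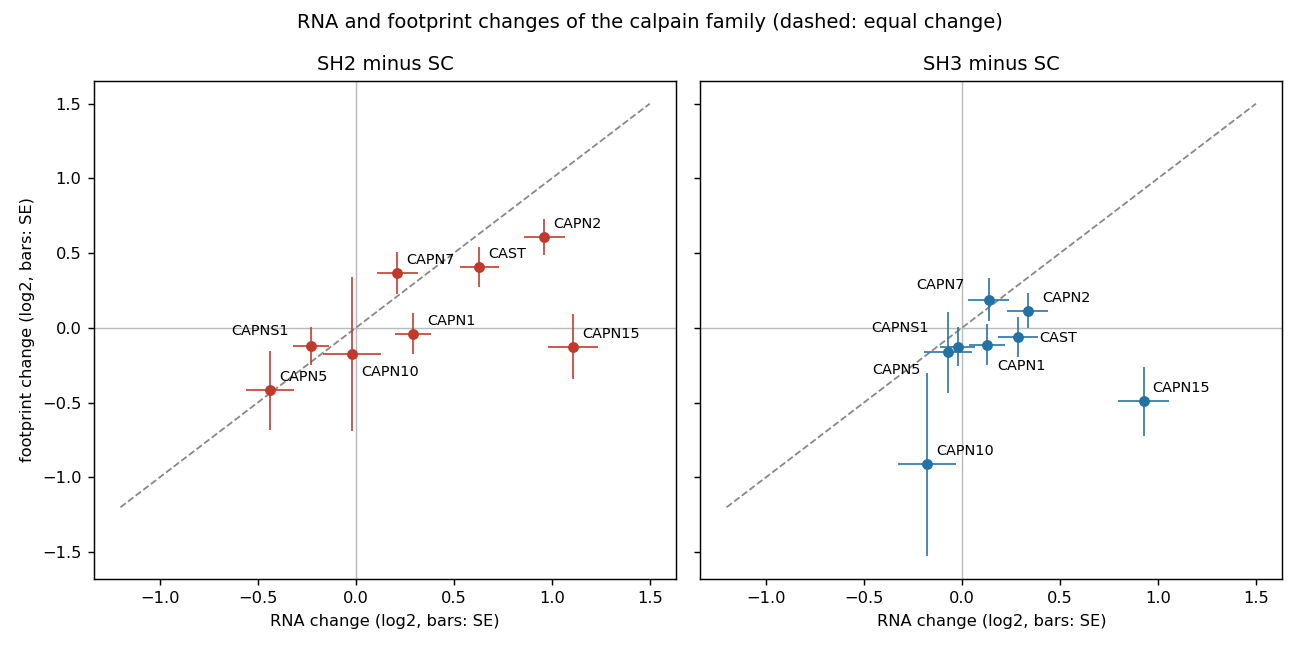
Log2 change in RNA (x axis) against log2 change in footprints (y axis) for the 8 genes, SH2 minus SC on the left and SH3 minus SC on the right. Bars are SE and the dashed line marks equal change; CAPN15 lies farthest below it in both panels, at 1.11 and −0.13 in SH2 and at 0.93 and −0.49 in SH3.

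The family's own make-up shifted with CAPN2. Of all RNA counts assigned to the 8 genes, CAPN2 took 50.6% ± 1.70 (SD, n = 3) in SC, then 60.5% ± 2.28 in SH2 and 52.2% ± 0.581 in SH3. Its share of the family's footprints was 38.1% ± 2.37, 47.5% ± 0.233 and 41.7% ± 1.85. The share of CAPNS1 in RNA was 14.6% ± 0.265 in SC, with 7.68% ± 0.526 under SH2 and 11.8% ± 0.0370 under SH3. CAPN15 took 5.79% ± 0.898 of the RNA of the family in SC, with 7.65% ± 0.719 under SH2 and 8.97% ± 0.777 under SH3, and 1.04% ± 0.174, 0.773% ± 0.174 and 0.735% ± 0.179 of its footprints. These are shares of counts, not per length, and are compared between treatments only. They were not tested, and the shares of the genes depend on each other.

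In control cells the members already spanned nearly the whole range of translational efficiency. Ranked among 11664 genes by the mean log2 ratio of footprints to RNA in SC, CAPN10 stood at percentile 2.20 and CAPN15 at 5.66. CAPN5 stood at 46.6, CAPN7 at 47.6, CAPN2 at 53.8, CAPN1 at 69.4, CAST at 72.8 and CAPNS1 at 97.9. The share of a transcript that is coding differs between genes and was not accounted for in this ratio. In the single SC lysates CAPN15 stood at 2.90, 13.1 and 6.50, CAPN10 at 2.98, 2.70 and 3.03, and CAPNS1 at 96.9, 97.2 and 96.0. CAPN5 and CAPN7 are neighbours in this order that differ by less than their spread over lysates, as are CAPN1 and CAST. The log2 ratio of CAPN15 was −2.22 ± 0.43 (SD, n = 3) in SC, against a median of −0.26 over all genes. These SC libraries also enter the contrast that led to CAPN15, so its place is a description.

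**Figure D4:**
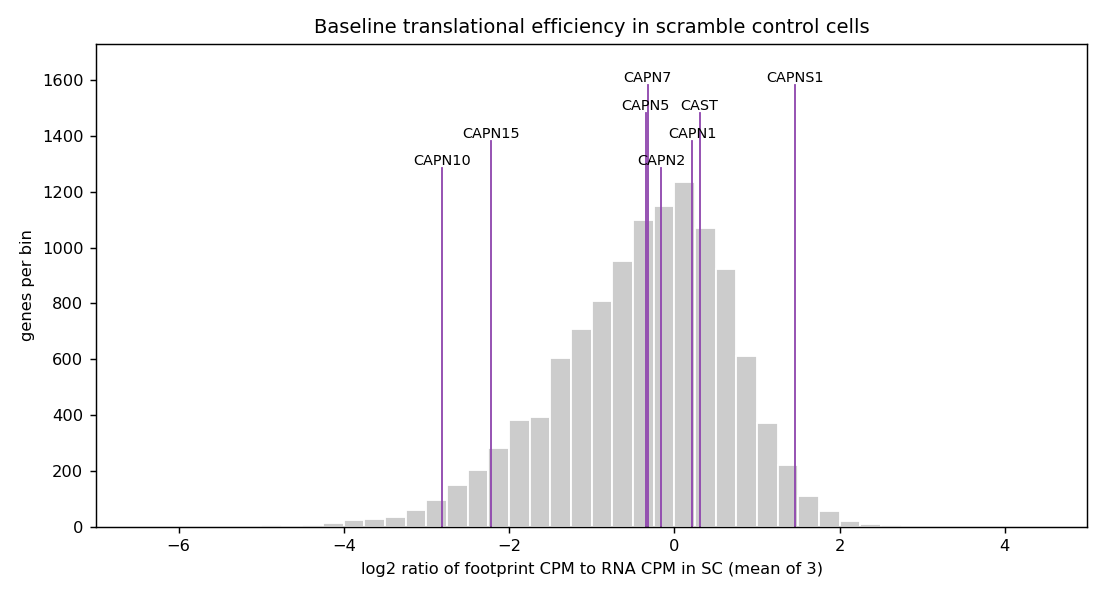
Number of genes (y axis) by log2 ratio of footprint CPM to RNA CPM in SC, mean of 3 lysates (x axis), for 11664 genes in bins of 0.25. Purple lines mark the 8 members; CAPN10 and CAPN15 stand at the low end, at percentiles 2.20 and 5.66, and CAPNS1 at the high end, at 97.9.

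CAPN2 and CAST differed between the hairpins in RNA and in footprints, and CAPN5 in RNA. Of the 7 members other than CAPN15, 3 were called in RNA between SH2 and SH3 by edgeR. Of all genes 39.3% were called (18.9% higher and 20.4% lower in SH2). In footprints 2 were called, where 23.8% of all genes were (12.1% higher and 11.6% lower). These counts are near the background, so the family is not set apart by them. CAPN1 and CAPNS1 were not called in RNA (adjusted p = 0.165 and 0.0821 by edgeR). CAPN2 RNA was higher in SH2 by 0.63 (SE 0.11, adjusted p = 0.000423 by edgeR) and CAST RNA by 0.34 (SE 0.10, adjusted p = 0.0152). CAPN5 RNA was lower in SH2, at −0.37 (SE 0.12, adjusted p = 0.0294), a call lost without SH2 replicate 1 or 2 or any SH3 replicate (adjusted p from 0.0548 to 0.118). In footprints CAPN2 was higher by 0.49 (SE 0.12, adjusted p = 0.00697) and CAST by 0.47 (SE 0.13, adjusted p = 0.0175). The CAST footprint call was lost without SH2 replicate 1 (adjusted p = 0.0689) or SH3 replicate 2 (adjusted p = 0.0962). In translational efficiency 0 of 7 were called by edgeR, 0 by DESeq2 and 0 at an unadjusted p under 0.05, where 0.0160% of all genes were called.

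The authors' deposited table gives log2 changes of its own for RNA and footprints. For CAPN15 the authors' deposited table lists 1.09 in SH2 and 0.90 in SH3 for RNA, and −0.12 and −0.49 for footprints. For CAPN2 the authors' deposited table lists 0.95 and 0.31 for RNA and 0.62 and 0.13 for footprints. Its columns for a further measure, named RD, hold identical values for both hairpins in all 17017 genes and were not used.

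Of the remaining 9 calpain genes, CAPN8 was near 0 in SC and counted in every hairpin library. CAPN8 is a calpain best known from the mucus-producing cells of the stomach. It had 0, 3 and 2 RNA counts with SC, 51, 88 and 88 with SH2, and 18, 29 and 43 with SH3. Summed over libraries and scaled to depth, its RNA was 42.0 times that of SC in SH2 and 17.9 times in SH3. These ratios rest on 5 SC counts. Without SC replicate 2 they were 70.6 and 30.1, and with any other library left out the SH2 ratio ran from 28.1 to 47.8, and the SH3 ratio was at most 21.5 and lowest, at 12.01, without SC replicate 1. CAPN8 passed the filter on low counts only through the hairpin libraries, so no test against SC is given. Between the hairpins, its RNA was higher in SH2 by 1.23 on the log2 scale (SE 0.33, adjusted p = 0.00940 by edgeR).

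CAPN8 footprints went the same way on small counts, at 1, 0 and 1 in SC, 8, 10 and 11 in SH2, and 2, 3 and 7 in SH3. Their ratio to SC was 20.3 in SH2 and 11.4 in SH3, which rests on 2 SC counts. The level stayed low, at 2.81 ± 0.710 CPM of RNA in SH2 and 1.19 ± 0.464 in SH3. CAPN8 and CAPN2 are adjacent genes on chromosome 1 in RefSeq, on opposite strands, and CAPN2 RNA rose in the same libraries. How reads that match several places were counted is not given in the sources used here. MUC5AC, a marker of the same stomach cells, had 0.775, 2.55 and 0.944 CPM of RNA in SC, 2.63, 3.35 and 3.77 in SH2, and 1.80, 1.22 and 3.26 in SH3, and its part in the CAPN8 result was not tested.

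Of the other 8 genes, CAPN11 alone passed the filter of the RNA fit. It had 11, 17 and 13 RNA counts with SC, 11, 16 and 4 with SH2, and 9, 3 and 0 with SH3. The SH3 libraries lay below the SC libraries and the SH2 libraries overlapped them. It passed only through its SC level, so no test is given. CAPN3, the muscle calpain, had 0 to 3 RNA counts per library and 0 footprints. CAPN6, CAPN9, CAPN12, CAPN13, CAPN14 and CAPNS2 had 0 to 8 RNA counts and 0 to 3 footprints per library.

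Among reported calpain substrates, more were called higher than lower in RNA and footprints. All 18 of a list of adhesion, membrane skeleton and cell death proteins were tested. By edgeR, SH2 had 9 RNAs called higher and 1 called lower, and SH3 had 10 and 4, where 31.1% and 27.8% of all genes were called higher and 30.4% and 25.2% lower. In footprints SH2 had 8 higher with 2 lower, and SH3 had 7 with 1, where 21.0% and 16.9% of all genes were called higher and 23.2% and 19.0% lower. The median RNA change was 0.32 and 0.28, against 0.01 and 0.03 over all genes.

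EGFR, the receptor for epidermal growth factor, was the highest, with RNA changes of 2.21 (SE 0.11, adjusted p = 1.35e-08 by edgeR) and 1.64 (SE 0.10, adjusted p = 1.05e-07). Its RNA level was 193, 225 and 174 CPM in SC, 903, 904 and 928 in SH2, and 618, 646 and 581 in SH3. SPTBN1, a spectrin of the membrane skeleton, rose in RNA by 0.82 (adjusted p = 1.22e-05) in SH2 and 0.34 (adjusted p = 0.0115) in SH3.

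In translational efficiency 0 of 18 substrates were called in either comparison by edgeR, near the background of 3.90% of all genes in SH2 and 0.686% in SH3. The lowest p were those of SPTBN1 in SH3 at 0.58 (adjusted p = 0.106) and CTTN, a cortical actin regulator, in SH2 at −0.49 (adjusted p = 0.0920). Under the other hairpin both had the opposite sign, at −0.13 for SPTBN1 in SH2 and 0.04 for CTTN in SH3. Next by p, TLN1, the talin of focal adhesions, had 0.40 in SH3 (adjusted p = 0.235) and 0.33 in SH2. The kinase PRKCA had −0.55 in SH2 (adjusted p = 0.184) and −0.23 in SH3. The median change was −0.10 in SH2 and −0.04 in SH3, against −0.02 and −0.04 over all genes.

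The zinc fingers of CAPN15 are shared with other proteins, whose calls in translational efficiency were near the background. Of 21 genes with RanBP2-type fingers 20 were tested, and 1 was called lower and 0 higher in SH2, against 2.46% of all genes lower and 1.44% higher, with 0 in SH3, against 0.686% of all genes in either direction. The one called was ZRANB1, a deubiquitinase, at −0.55 (SE 0.14, adjusted p = 0.0354 by edgeR) in SH2 and −0.29 (adjusted p = 0.424) in SH3. SHARPIN, a subunit of the linear ubiquitin ligase, combined higher RNA with less translational efficiency in the fit without passing the test in the latter. Its RNA rose by 1.04 (adjusted p = 8.53e-07) and 0.78 (adjusted p = 1.76e-05), and its translational efficiency differed by −0.77 (interval −1.24 to −0.29, adjusted p = 0.0595) and −0.65 (interval −1.13 to −0.17, adjusted p = 0.217). Next by p, TAF15 went the other way, at 0.32 (adjusted p = 0.281 by edgeR) in SH2 and 0.46 (adjusted p = 0.188) in SH3. VPS36 had −0.14 (adjusted p = 0.791) in SH2 and −0.62 (adjusted p = 0.207) in SH3. The median change of the list was −0.07 in SH2 and 0.07 in SH3, against −0.02 and −0.04 over all genes.

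Genes beside CAPN15 on chromosome 16 were mixed in RNA. Of the 3 protein-coding genes on each side that are in the counts, RAB11FIP3, DECR2, NME4 and PIGQ were tested, and PRR35 and NHLRC4 did not pass the filter. PIGQ, an enzyme of the glycosylphosphatidylinositol anchor, rose in RNA by 1.01 (adjusted p = 6.17e-06 by edgeR) and 0.60 (adjusted p = 0.000758). NME4, a mitochondrial nucleoside diphosphate kinase, fell in RNA by 0.84 (adjusted p = 0.000127) and 0.97 (adjusted p = 6.12e-05). Their translational efficiency differed from SC by −0.42 to −0.95 in SH2 and by −0.52 to −0.82 in SH3 over the 4 genes, with none called by edgeR (adjusted p from 0.139 to 0.637).

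The genes whose pattern over the 18 libraries was most like that of CAPN15 were ZNF628 (Pearson r = 0.915), TBC1D9B (0.895), EXOSC4 (0.885), SCAND1 (0.873) and ATG4B (0.872). The measure is log2 CPM centred within RNA and within footprint libraries, over 12530 genes, and it is given without a p because the genes share libraries and depth. These genes were picked for their likeness in the same libraries, so changes like those of CAPN15 follow from the choice. ZNF628, a zinc finger protein, had RNA changes of 1.09 and 1.08, and translational efficiency changes of −0.96 and −1.36. TBC1D9B had RNA changes of 0.85 and 0.66, and translational efficiency changes of −0.86 and −0.87. Among the members r was 0.804 for CAPN1, 0.600 for CAPN2, 0.505 for CAST, 0.335 for CAPN10, 0.0815 for CAPN7, −0.281 for CAPNS1 and −0.333 for CAPN5.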

How the data were processed

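All values come from 1 deposited table. Its raw whole-number counts per gene and library are as deposited by the authors. Its normalized signal columns are DESeq2-normalized values per the file headers, each equal to the deposited count divided by 1 factor per library. The log2 fold changes and p-values in it are, per the file headers, the authors' DESeq2 results for the hairpins against SC. Per the submitters' processing notes, Bowtie 1.2.2 and DESeq2 were used. The build, annotation, counting tool and treatment of reads that match several places are not given in the sources used here.

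The 8 members, and the lists of further calpains, substrates, RanBP2-type zinc finger genes, neighbours and cell type markers, were chosen with earlier results of these data known. Named genes are the members, the further calpains, up to 4 genes of each list with the lowest p in translational efficiency, the neighbours, and the 5 genes most like CAPN15. EGFR, and the RNA values of the genes named, were added after their values were seen. Counts were filtered (filterByExpr), scaled (TMM) and tested with edgeR 4.0.16 (R 4.3.3; quasi-likelihood, two-sided), in 1 fit of 9 RNA libraries, 1 of 9 footprint libraries and, for translational efficiency, 1 of all 18 with the interaction contrast. Called means a Benjamini-Hochberg adjusted p under 0.05 over all genes tested. SE is the absolute log2 change divided by the square root of F, and intervals are 95%. CPM is TMM-scaled. DESeq2 1.42.0 and other scalings, filters, depths and left-out replicates were alternatives. The scripts were tested on simulated data. No pair of replicates agreed within counting noise (chi-square per degree of freedom 3.55 to 58.7). Same-numbered SC and SH2 libraries deviated from their group means together (r from 0.37 to 0.41 in RNA and from 0.23 to 0.27 in footprints), so the numbers were taken to pair these groups. SH3 did not meet that bar (a correlation over 0.1 in every pair), nor did RNA and footprints of 1 number. A block by number within each kind of library was added for translational efficiency after seeing the data. The main fits hold no block, so the tests given for SH2 against SC do not use the pairing of these groups. Blocks by number were alternatives only. No interval is given for the ratios of summed CAPN8 counts, since replicates differed by more than counting noise. Promoter sequences come from RefSeq (GRCh38.p14), matched by symbol for 7 of 8 members.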

Additional observations from a re-analysis of the deposited data

Results flagged for a closer look

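A direct edgeR test of SH2 against SH3 separated the hairpins for a few genes, with adjusted p under 0.05. CAPN2 was higher in SH2 by 0.63 in RNA and by 0.49 in footprints (log2). CAST was higher in SH2 by 0.34 in RNA and by 0.47 in footprints. CAPN8 RNA was higher in SH2 by 1.23. CAPN5 RNA was lower in SH2, at −0.37.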

How the results depend on the processing

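Footprint depth limits CAPN10, CAPN5 and CAPN15 most, and a group of 3 libraries can lose a call with 1 of them. Counts over all genes moved most for translational efficiency. In SH2 against SC, 489 genes became 910 with DESeq2, 184 with only the treatments compared, 191 with the lysate as a replicate block, 755 with the number as a replicate block within each kind of library, 312 with footprints thinned to one depth, and 110 to 555 with 1 replicate left out. In SH3 against SC, 86 became 349, 46, 23 (lysate block), 150 (number block) and 10 to 244 with 1 replicate left out. In SH2 against SH3, 2 became 35 with no filter, 219 with DESeq2, 36 with only the treatments compared, 0 with the lysate block, 75 with the number block, 1 when thinned and 0 to 51 with 1 replicate left out. With plain library totals the split in SH2 went from 181 higher and 308 lower to 129 higher and 476 lower. Footprint calls between hairpins ran from 1541 to 2928 with 1 replicate left out. In translational efficiency, the lowest counts against SC were 10 in SH3, without SC replicate 3, and 110 in SH2, without SH2 replicate 3. The highest counts in SH3 against SC (244) and between the hairpins (51) came without SC replicate 1.

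Counts over the members with 1 replicate left out ran from 3 to 5 for RNA in SH2, 0 to 2 for RNA in SH3, 1 to 3 for footprints in SH2 and 1 to 2 for footprints between hairpins. Neither replicate block changed a call of a member. Only SC and SH2 are paired by number. Over all treatments, same-numbered libraries had correlations of deviations from −0.15 to 0.49 in RNA and from −0.11 to 0.29 in footprints. RNA and footprints of 1 treatment had −0.47 to 0.48 within a number and −0.33 to 0.54 across numbers. The data thus do not show that RNA and footprints of 1 number share a lysate.

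The following values changed sign, over the widest ranges for CAPN10. With plain totals, CAPN10 RNA in SH2 was 0.077, CAPN5 RNA in SH3 0.016, CAPNS1 RNA in SH3 0.065, CAST footprints in SH3 0.0081 and CAPNS1 footprints between hairpins −0.059, the last being −0.00040 with no filter, −0.0032 with a mean count of at least 10 and −0.012 when thinned. CAPN5 translational efficiency in SH2 was 0.0097 with a mean count of at least 10, 0.010 with the lysate as a replicate block, 0.047 with the number as one and 0.13 when thinned, and CAPN7 between hairpins −0.069 when thinned. With 1 replicate left out, values that crossed 0 ran from −0.17 to 0.068 for CAPN10 RNA in SH2, from −0.085 to 0.025 for CAPNS1 RNA in SH3, from −0.14 to 0.047 for CAPN1 footprints in SH2, from −0.96 to 0.28 for CAPN10 footprints in SH2, from −0.26 to 0.018 for CAPN15 footprints in SH2, from −0.12 to 0.047 for CAST footprints in SH3. They ran from −0.42 to 0.027 for CAPN5 footprints between hairpins, from −0.056 to 1.19 for CAPN10 footprints between hairpins, from −0.070 to 0.11 for CAPNS1 footprints between hairpins, from −0.27 to 0.27 for CAPN5 translational efficiency in SH2, from −0.84 to 0.17 for CAPN10 translational efficiency in SH2. They also ran from −0.23 to 0.0062 for CAPN5 translational efficiency in SH3, from −0.0061 to 0.10 for CAPN7 translational efficiency in SH3, from −0.17 to 0.37 for CAPN5 translational efficiency between hairpins, from −0.082 to 0.93 for CAPN10 translational efficiency between hairpins and from −0.091 to 0.45 for CAPN15 translational efficiency between hairpins. In control cells the percentile ran from 2.10 to 2.54 for CAPN10 and from 97.1 to 98.3 for CAPNS1. The share of counts per kilobase of coding length was not run, since it needs protein lengths that were not used here.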

Other observations

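CAPN11 footprints, which fell below the filter of the footprint fit, numbered 9, 1 and 5 counts in SC, 0 in each SH2 library, and 1, 0 and 0 in SH3. The muscle actin ACTA1 had 0 to 2 RNA counts per library but 5 to 22 footprints in SC, 7 to 15 in SH2 and 3 to 8 in SH3.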
